A study of Mus musculus with 18 samples.

Results

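Mouse bone marrow-derived dendritic cells lacking Ubc9 were compared before and after 6 h of bacterial lipopolysaccharide (LPS). The arrays were chosen by their labels alone, as the 3 arrays of unstimulated knockout cells and the 3 arrays of knockout cells after 6 h of LPS, 6 of the 18 arrays in the series. The other arrays are knockout cells after 1 h of LPS and wild-type cells without LPS and after 1 h or 6 h, with 3 arrays in each group. All cells, wild type and knockout alike, were grown from marrow for 10 days with the growth factor GM-CSF at 20 ng/ml and serum at 10%. All received 100 nM 4-hydroxytamoxifen on day 6, and the stimulated cells 10 ng/ml of LPS. The labels give the genotype as UBC9KO, while the allele, the recombinase and the age of the mice do not appear in the labels. Each array took 200 ng of total RNA, and the replicates are biological replicates per the series design. In such bulk cultures fewer cells of a type and less RNA per cell cannot be told apart.

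LPS is bound by Cd14 and the receptor Tlr4 on dendritic cells and macrophages. One branch of the signal, through the adaptor MyD88, frees NF-kB subunits to enter the nucleus and turn on genes of inflammatory cytokines and chemokines. The other, through the adaptor Trif, leads to interferon regulatory factors and to secretion of interferon beta, which acts back on the cells through its receptor, the Jak kinases and Stat proteins to raise antiviral genes. Ubc9 is the enzyme that attaches the small protein SUMO to its targets, among them many regulators of transcription.

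The sequences that lie just before the start of 5 of these genes are shown because between them they carry the letter patterns of both branches. Il6 and Ifnb1 were the largest rises described below, Cxcl10 is a target of both branches, and Ifit3 and Ifit1 are interferon-inducible genes that changed less in knockout than in wild-type cells. Each line holds the 250 bases before a RefSeq transcript start in GRCm38.p6, written 5′ to 3′ on the gene's strand. Capitals mark matches, on either strand, to a pattern bound by NF-kB subunits (GGGA, any 2 bases, T, any base, CC) or to one bound by interferon regulatory factors (GAAA, any 2 bases, GAAA, which reads TTTC, any 2 bases, TTTC on the other strand). Matches to the 2 patterns do not overlap in these lines.
Il6, chr5:30012864-30013113, plus strand: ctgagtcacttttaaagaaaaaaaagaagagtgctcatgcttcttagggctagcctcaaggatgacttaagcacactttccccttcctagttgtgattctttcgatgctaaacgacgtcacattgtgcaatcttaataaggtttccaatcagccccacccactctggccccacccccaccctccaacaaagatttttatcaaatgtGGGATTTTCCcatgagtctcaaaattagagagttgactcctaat
Ifnb1, chr4:88522795-88523044, minus strand: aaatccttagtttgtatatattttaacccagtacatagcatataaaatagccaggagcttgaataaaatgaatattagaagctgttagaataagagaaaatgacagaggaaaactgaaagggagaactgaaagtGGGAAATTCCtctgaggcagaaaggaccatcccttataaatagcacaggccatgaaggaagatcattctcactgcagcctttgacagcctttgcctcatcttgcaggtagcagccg
Cxcl10, chr5:92348890-92349139, minus strand: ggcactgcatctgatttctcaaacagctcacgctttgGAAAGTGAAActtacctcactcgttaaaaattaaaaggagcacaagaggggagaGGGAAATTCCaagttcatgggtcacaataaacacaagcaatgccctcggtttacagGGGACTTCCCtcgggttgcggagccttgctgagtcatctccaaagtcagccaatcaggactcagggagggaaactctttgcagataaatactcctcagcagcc
Ifit3, chr19:34583279-34583528, plus strand: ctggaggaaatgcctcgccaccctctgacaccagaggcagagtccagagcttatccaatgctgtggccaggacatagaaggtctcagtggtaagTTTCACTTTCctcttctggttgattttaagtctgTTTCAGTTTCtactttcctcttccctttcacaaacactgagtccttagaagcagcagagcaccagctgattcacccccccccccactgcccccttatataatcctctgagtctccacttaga
Ifit1, chr19:34640639-34640888, plus strand: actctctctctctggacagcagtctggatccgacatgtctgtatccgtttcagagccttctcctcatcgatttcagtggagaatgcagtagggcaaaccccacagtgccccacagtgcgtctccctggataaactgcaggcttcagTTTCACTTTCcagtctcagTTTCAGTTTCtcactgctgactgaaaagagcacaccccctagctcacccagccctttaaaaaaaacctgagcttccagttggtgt
Il6 and Ifnb1 each hold 1 match to the NF-kB pattern, beginning 44 and 116 bases before the start. Ifit3 and Ifit1 each hold 2 matches to the interferon regulatory factor pattern, and Cxcl10 holds 1 such match and 2 to the NF-kB pattern. The interferon regulatory factor pattern asks for exactly 2 bases between its parts, so repeats with another gap are not marked. The stretch gaaaactgaaa in the Ifnb1 line, with a wider gap, is such a repeat. A line without a marked match may therefore still hold related letters. A match is a stretch of letters and not a measured binding site.

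Values are RMA log2 signals, in which 1 unit is a 2-fold difference, and changes are log2 fold changes with their standard error (SE). On the first principal component of the 6 knockout arrays, with 70.6% of the variance, the unstimulated arrays lay at −52.39, −43.06 and −20.8 and the 6 h arrays at 26.85, 36.85 and 52.55. On the second, with 15.8%, array 3 was lowest of both groups, at −30.17 and −19.12. A list of 22 germline and lineage-silent genes was used as a gauge of background. It averaged 3.63, 3.70 and 3.79 on the unstimulated arrays and 3.82, 3.87 and 3.92 on the 6 h arrays, so the gauge itself was slightly higher after LPS. Changes that start near this level, such as those of Il6, Ereg and Dnase1l3, are uncertain in size. The 75th percentile of the gene signals was 7.75 to 7.85 on the unstimulated knockout arrays and 7.43 to 7.63 on the 6 h knockout arrays, so the scale of the arrays bears on small changes.

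LPS for 6 h changed the RNA of knockout cells on a broad front. In limma, 6417 of 19938 genes (32.2%) passed an adjusted p under 0.05, of which 2398 (12%) were higher and 4019 (20.2%) lower after LPS. A change of at least 2-fold was called for 579 genes (2.9%) upward and 707 (3.55%) downward. The 3 arrays of one group all lay above the 3 of the other for 8143 genes (40.8%), 3444 of them (17.3%) higher and 4699 (23.6%) lower after LPS. Without array 3 of the knockout groups, 5534 genes were called, 1960 higher and 3574 lower. The split depends on the scale: when each array was centred on its 75th percentile, the median of all genes moved from 0.03 to 0.30 and 8895 genes passed upward and 2089 downward. Brighter genes, the 9540 with a mean of 6 or more in any group, were lower in the median. Fitted alone they had a median of −0.24, with 1508 called higher and 4024 lower. The lists of genes described below are read against the shares over all genes, so a small fall of a list of bright genes may not be particular to it. Where the median of a pathway list turns sign on the 75th percentile scale both values are given.

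**Figure D1:**
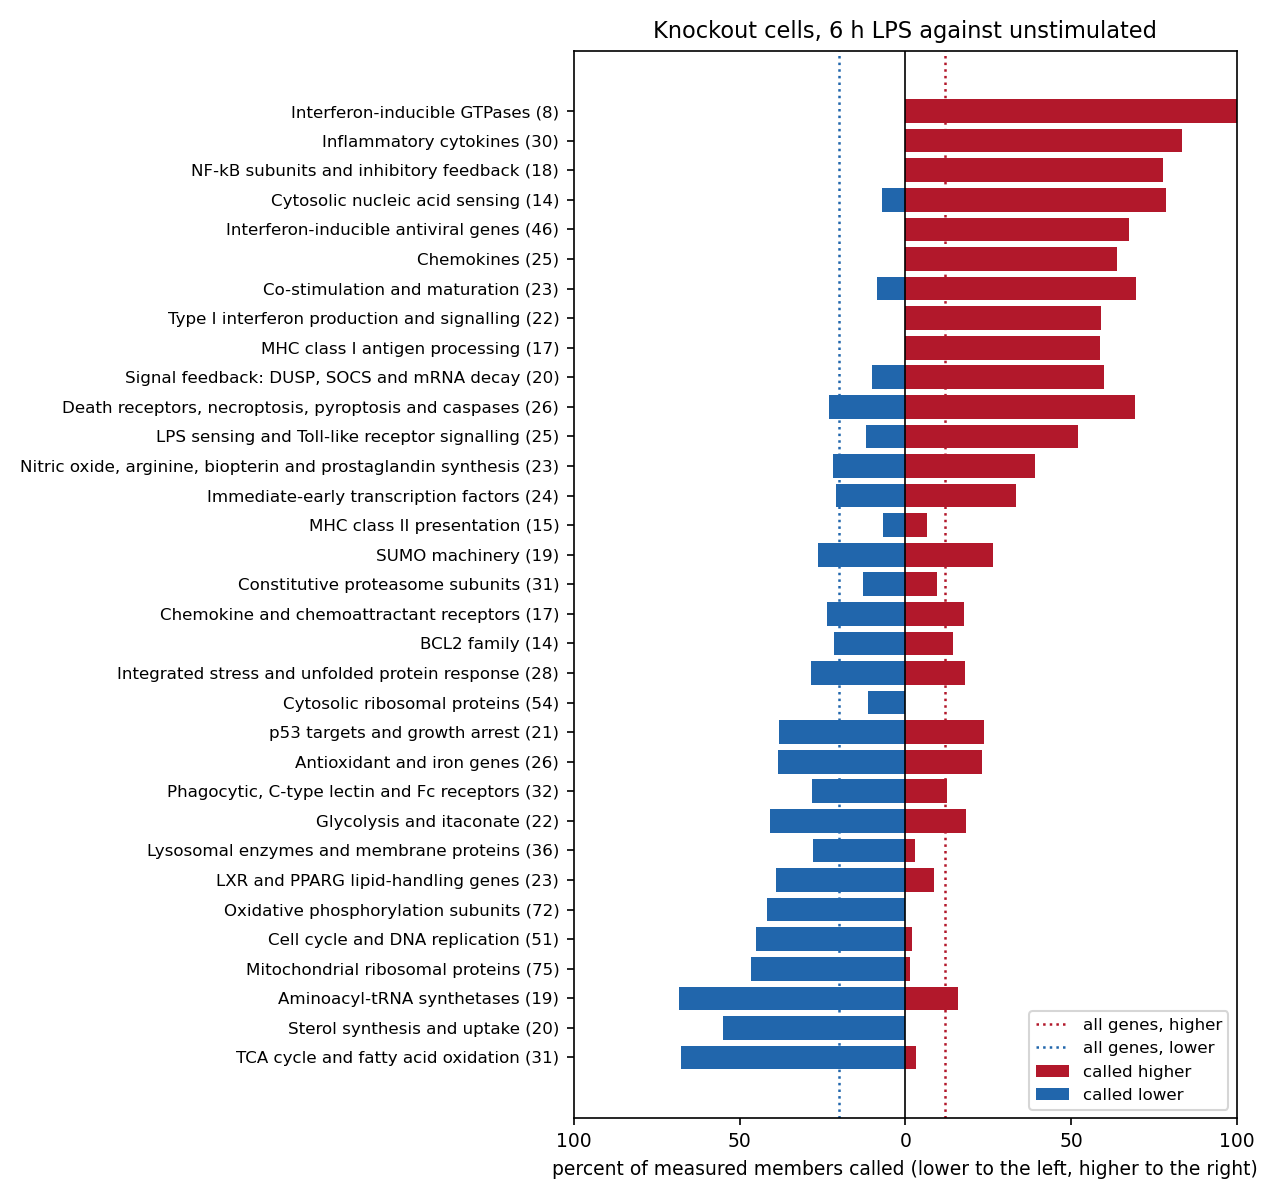
Share of measured members called higher (red, to the right) and lower (blue, to the left) in knockout cells after 6 h of LPS, for the pathway lists, with the number of measured members in parentheses. Dotted lines mark the shares over all 19938 genes, 12% higher and 20.2% lower. Interferon-inducible GTPases, cytokines and NF-kB genes lie at the top, and sterol synthesis and the TCA cycle at the bottom.

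Il6, which encodes a cytokine of fever and of the acute phase response, rose furthest of all genes named. Il6 signals were 4.16, 3.97 and 3.74 on the unstimulated knockout arrays and 11.90, 12.10 and 11.89 after 6 h, a log2 change of 8.01 ± 0.50 (SE, 3 arrays per group, adjusted p = 1.9e-08). The unstimulated values lay near the background gauge, the 3 arrays after LPS lay close together, and the groups were far apart. Of 30 inflammatory cytokines, 25 rose, 0 fell and 5 were not called, with a median change of 1.43 against 0.03 for all genes. Tnfsf15, a ligand of the TNF family that co-stimulates T cells, rose by 4.31 ± 0.28, from 6.03, 6.55 and 6.61 to 10.54, 10.77 and 10.81. Il1b, the secreted interleukin of the inflammasome, went from 7.40, 9.19 and 7.91 to 12.20, 12.33 and 12.31, a rise of 4.11 ± 0.35. Il12b, the shared subunit of the T cell-polarising cytokines IL-12 and IL-23, rose by 4.74 ± 0.37 from 5.34, 6.04 and 4.86 to 9.88, 10.22 and 10.36. Il27, a subunit of a further cytokine of the IL-12 family, rose by 3.84 ± 0.25 from 5.93, 6.02 and 6.79 to 9.81, 10.10 and 10.36. Tnf, the founding cytokine of its family, rose by 2.89 ± 0.21 and Il1a, an interleukin released by damaged cells, by 2.51 ± 0.17. The groups did not overlap for any of these genes. Il10, the main anti-inflammatory cytokine of these cells, was at 3.18 to 3.59 after LPS and 3.16 to 3.20 before, all below the background gauge. The difference of 0.26 ± 0.14 was not called (adjusted p = 0.15; 0.0085 on the 75th percentile scale, 0.041 without 6 h array 2 and 0.048 with the replicate block, a fit that takes arrays of 1 number and genotype as a set). Ereg, a ligand of the EGF receptor outside this list, rose by 4.54 ± 0.41 from a level of 3.88 to 4.12.

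**Figure D2:**
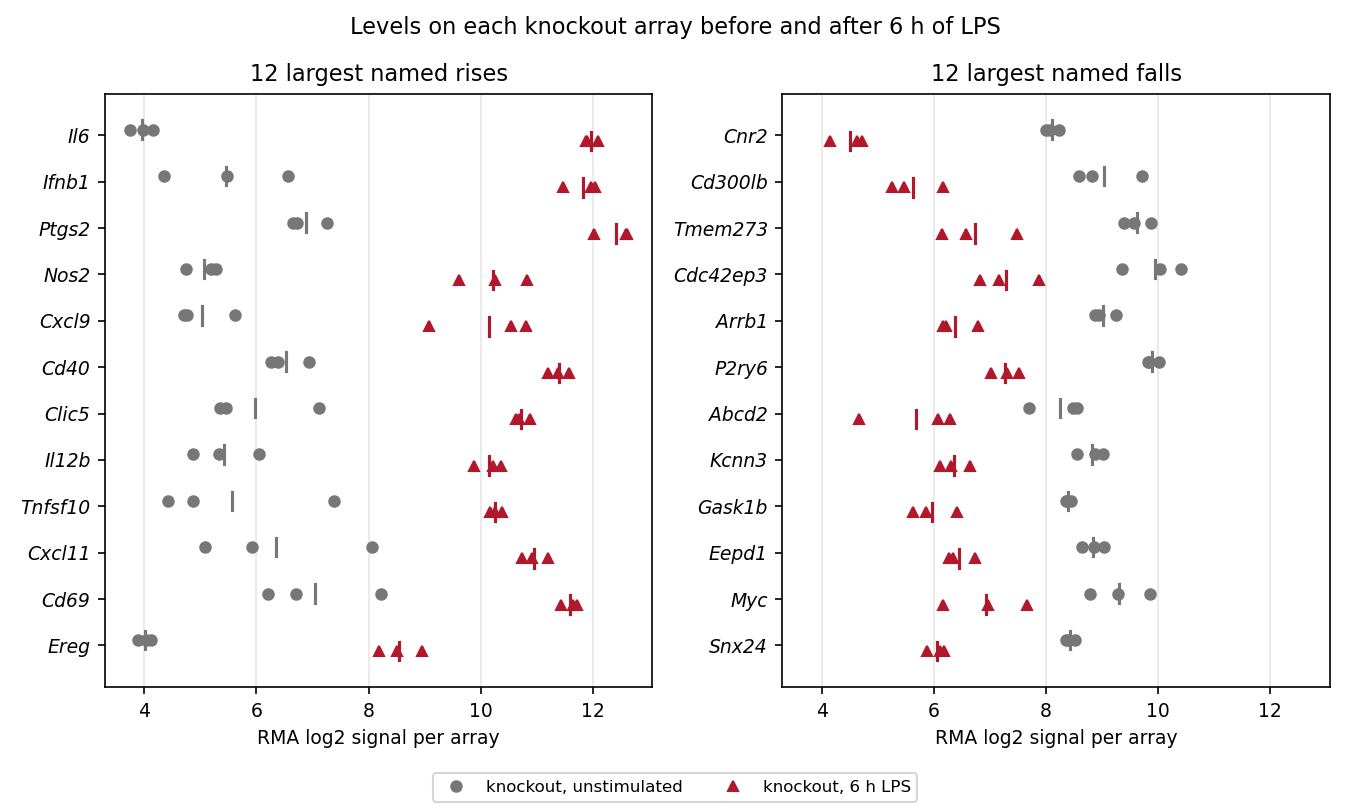
RMA log2 signal on each of the 3 unstimulated (grey circles) and 3 LPS-treated (red triangles) knockout arrays for the 12 largest named rises and the 12 largest named falls; short bars are group means. The groups lie apart for every gene drawn, and the unstimulated arrays spread most for Tnfsf10 (4.42 to 7.39) and Cxcl11 (5.08 to 8.06).

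The gene of interferon beta was among the most strongly raised. Ifnb1 signals were 4.35, 5.48 and 6.56 on unstimulated arrays 1, 2 and 3, and 12.04, 11.98 and 11.48 after LPS, a log2 rise of 6.37 ± 0.40 (adjusted p = 1.9e-08). The unstimulated arrays were spread more widely than the 6 h arrays, and array 3, the highest before LPS, was the lowest after it. Of 22 genes that make or relay type I interferon, 13 rose, 0 fell and 9 were not called. Jak2, a kinase of cytokine receptors, rose by 2.22 ± 0.15 from 8.57, 8.68 and 8.84 to 10.87, 10.96 and 10.90. Tyk2, a kinase of the interferon receptor, rose by 1.01 ± 0.12 and Stat3, a transcription factor downstream of the IL-6 receptor, by 0.85 ± 0.09. In the list of 14 genes of cytosolic nucleic acid sensing, which also holds other cytosolic sensors such as Trim21 and Nod1, 11 rose and 1 fell. The risers included Trim21, an antibody receptor inside cells (2.23 ± 0.25), Nod1, a sensor of bacterial cell walls (1.81 ± 0.15), and Aim2, a sensor of DNA (1.18 ± 0.11). The member that fell was Mavs, the mitochondrial adaptor of RNA sensors, by 1.02 ± 0.10 on the log2 scale, from 8.78, 8.79 and 8.96 to 8.02, 7.64 and 7.82.

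Interferon-inducible antiviral genes began at unequal levels on the knockout arrays and ended at the same level. Over 46 measured genes the mean signal was 8.82, 9.29 and 10.15 on unstimulated arrays 1, 2 and 3, and 10.73, 10.72 and 10.74 after 6 h. The unstimulated knockout means were all above those of wild-type cells after 6 h of LPS, which were 7.75, 8.42 and 8.69. The SD over the 3 knockout arrays was smaller after LPS than before for 46 of the 46 genes, against 43.5% of all genes, and its median went from 0.60 to 0.10. In wild-type cells the median SD of the same genes was 0.25 without LPS and 0.43 after 6 h. Of the 46 genes, 31 rose, 0 fell and 15 were not called in knockout cells, with a median change of 1.25. The count was 20 without unstimulated array 1, where the levels were lowest, and 37 without array 3 of the knockout groups. Daxx, a chaperone of histone H3.3, rose by 1.77 ± 0.22 (adjusted p = 1.5e-05) from 8.53, 8.93 and 9.47 to 10.76, 10.85 and 10.65. Pml, the organiser of the nuclear bodies that gather SUMO-modified proteins, rose by 1.74 ± 0.27 from 7.60, 7.70 and 8.68 to 9.78, 9.70 and 9.70. Adar, an editor of double-stranded RNA, rose by 0.91 ± 0.16 and Ifi35 by 1.30 ± 0.21.

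The Ifit genes, whose proteins bind viral RNA, were already high in unstimulated knockout cells. Ifit3 stood at 10.58, 11.10 and 11.73 before LPS and at 11.96, 11.91 and 12.02 after it, a difference of 0.83 ± 0.43 that was not called (adjusted p = 0.15; 0.042 on the 75th percentile scale). Ifit1 rose by 1.5 ± 0.45 (adjusted p = 0.017), from 9.75, 10.48 and 11.13 to 12.04, 11.92 and 11.89, and was not called without unstimulated array 1 (adjusted p = 0.096). Ifit2 rose by 1.60 ± 0.52 (adjusted p = 0.026), with adjusted p = 0.14 without unstimulated array 1, 0.079 without unstimulated array 2, and 0.053 and 0.077 without 6 h arrays 2 and 3. Rtp4, another interferon-inducible gene, was at 10.67, 10.89 and 11.15 before and at 11.43, 11.39 and 11.35 after LPS, which was not called in the fit of all 18 arrays (adjusted p = 0.28) and was called with only these groups (0.04). In these genes the highest signal on any array was 12.19 (Ifit2), while the brightest genes of the 6 h knockout arrays reached 13.35 to 13.58. The level at which the probe sets of these genes saturate was not tested.

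The interferon-inducible GTPases, which attack the vacuoles of intracellular microbes, rose in all 8 measured cases, with a median of 1.86. Their mean was 8.04, 8.53 and 9.76 on unstimulated arrays 1, 2 and 3, and 11.01, 10.96 and 10.97 after LPS. Iigp1 went from 4.79, 5.38 and 8.17 to 10.44, 10.34 and 10.63, a rise of 4.35 ± 0.77 (adjusted p = 4.1e-04). Gbp5, which promotes inflammasome assembly, rose by 3.03 ± 0.43, Gbp4 by 2.55 ± 0.53 and Gbp3 by 2.14 ± 0.35. For each of the 4, unstimulated array 3 was highest and lay below every 6 h array. The count was 7 without unstimulated array 1 or 2.

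**Figure D3:**
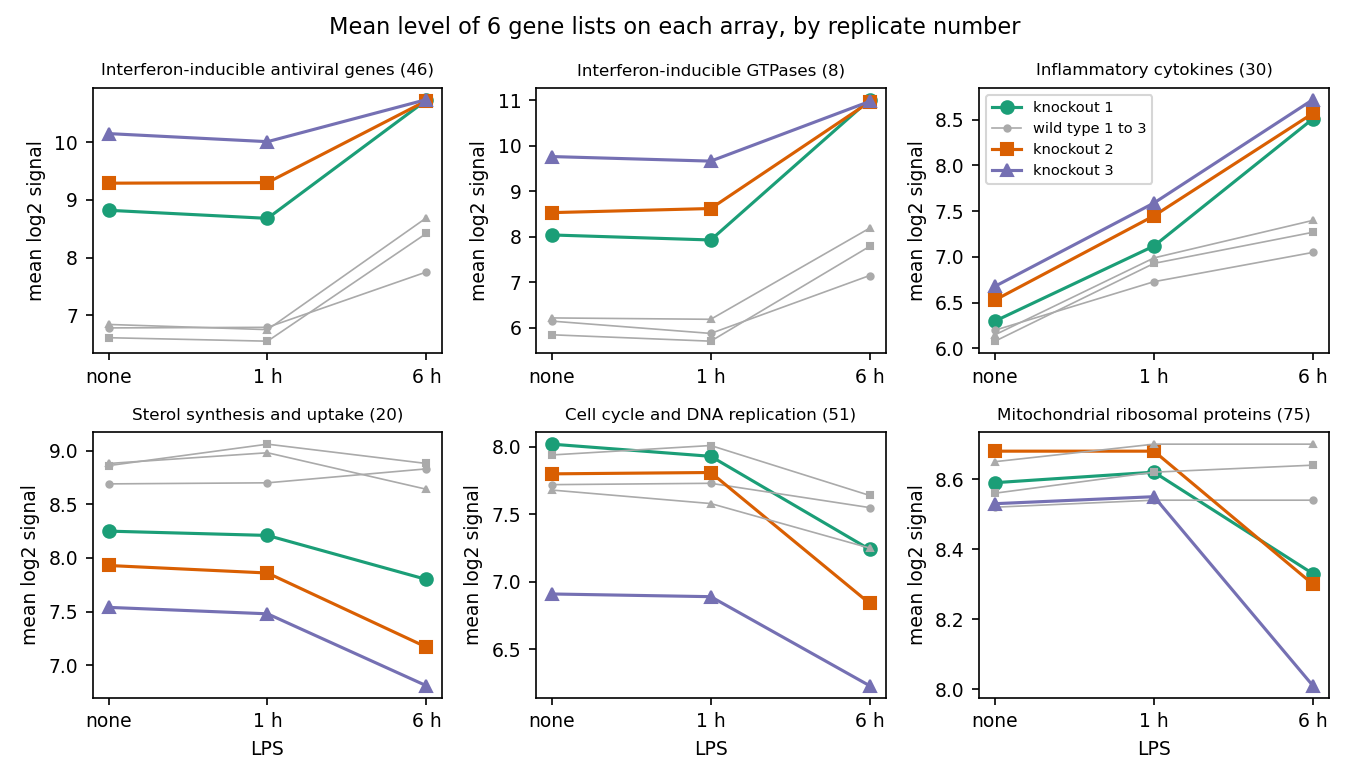
Mean RMA log2 signal of 6 gene lists (number of genes in parentheses) on each array without LPS and after 1 h and 6 h; coloured lines join knockout arrays of the same replicate number and thin grey lines join wild-type arrays. The 3 knockout lines of antiviral genes start at 8.82, 9.29 and 10.15 and meet at 10.72 to 10.74, while those of sterol and cell cycle genes keep their order and fall together.

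Chemokines rose, while their receptors were mixed. Of 25 chemokines, 16 rose, 0 fell and 9 were not called, with a median of 1.35. Cxcl9 and Cxcl11, ligands of a chemokine receptor of T cells, rose by 5.12 ± 0.59 and 4.61 ± 0.62. Cxcl9 went from 4.70, 4.76 and 5.62 to 10.54, 10.82 and 9.08, and Cxcl11 from 5.08, 5.92 and 8.06 to 11.21, 10.92 and 10.74. The other ligand of that receptor, Cxcl10, went from 7.67, 9.69 and 10.71 to 12.72, 12.65 and 12.72, a rise of 3.34 ± 0.58. The neutrophil attractants Cxcl3, Cxcl1 and Cxcl2 rose by 4.49 ± 0.47, 4.31 ± 0.34 and 4.17 ± 0.30, and Ccl5, a T cell attractant, by 2.67 ± 0.32. Unstimulated array 3 was highest for these 3 ligands and unstimulated array 2 for all 3 neutrophil attractants. Of 17 chemokine and chemoattractant receptors, 3 rose and 4 fell, a falling share near that of all genes. With the replicate block 3 rose and 9 fell, with only these groups in the fit 2 fell, and on the 75th percentile scale 6 rose and 3 fell. Ccrl2, which holds the attractant chemerin at the cell surface, rose by 3.33 ± 0.23, and Ccr7, which guides dendritic cells to lymph nodes, by 1.85 ± 0.39 from 8.44, 8.52 and 8.34 to 10.52, 10.25 and 10.07. Ccr2, a receptor that brings monocytes out of the marrow, fell by 2.06 ± 0.47 from 7.22, 7.45 and 7.72 to 5.05, 5.38 and 5.78. Cxcr4, a receptor of marrow retention, fell by 1.47 ± 0.26 on the log2 scale.

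Genes of the NF-kB pathway and its inhibitors rose together. Of 18 measured, 14 rose, 0 fell and 4 were not called, with a median of 1.06. Nfkbiz, a nuclear cofactor needed for Il6 transcription, rose by 3.62 ± 0.23, from 5.77, 6.23 and 6.21 to 9.42, 9.72 and 9.91. The inhibitors Tnfaip3 (3.04 ± 0.21), Nfkbia (1.84 ± 0.17) and Tnip1 (0.97 ± 0.08) and the subunit Rel (1.5 ± 0.12) also rose. Of 25 genes of LPS sensing and Toll-like receptor signalling, 13 rose and 3 fell. Tlr3, the receptor for double-stranded RNA, rose by 2.50 ± 0.24 and Peli1, a ubiquitin ligase of this pathway, by 2.26 ± 0.12. Irak3 and Irak2, kinases after the receptor, rose by 1.19 ± 0.13 and 1.09 ± 0.15, and Irak1 fell by 0.52 ± 0.11 on the log2 scale. Tlr4 itself was at 10.73, 10.80 and 10.60 before and 10.60, 10.56 and 10.34 after LPS, which was not called (−0.21 ± 0.11, adjusted p = 0.16). Its co-receptor Cd14 rose by 1.13 ± 0.25, from 10.28, 10.70 and 10.22 to 11.22, 11.83 and 11.53.

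Feedback genes and early transcription factors were mixed. Of 20 genes of signal feedback, 12 rose and 2 fell, among them Zc3h12c and Zc3h12a, RNases of cytokine mRNAs (2.36 ± 0.17 and 1.12 ± 0.11), and the inhibitors of cytokine receptors Socs3 (2.27 ± 0.22) and Socs1 (1.75 ± 0.22). Dusp6, a phosphatase of the MAP kinase Erk, fell by 1.05 ± 0.15 and Zfp36l2, an mRNA decay factor, by 0.75 ± 0.10. Of 24 immediate-early transcription factors, 8 rose and 5 fell, a falling share near the 20.2% of all genes. On the 75th percentile scale 14 rose and 4 fell. Nr4a3, an orphan nuclear receptor, rose by 2.74 ± 0.48 from 5.62, 5.60 and 5.49 to 9.22, 8.31 and 7.41, and Junb by 1.29 ± 0.10. Myc, a driver of growth and biosynthesis, fell by 2.38 ± 0.33 from 9.29, 9.85 and 8.79 to 7.66, 6.97 and 6.16. Fos fell by 1.47 ± 0.13 and Jun by 1.00 ± 0.13 on the log2 scale.

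Surface genes of dendritic cell maturation rose. Of 23 measured, 16 rose and 2 fell, with a median of 1.15. The co-stimulatory receptor Cd40 went from 6.26, 6.38 and 6.93 to 11.21, 11.58 and 11.39, a rise of 4.87 ± 0.30 (adjusted p = 1.5e-08). Cd86, a ligand of the T cell receptor Cd28, rose by 2.36 ± 0.51 from 6.74, 6.62 and 7.82 to 9.36, 9.52 and 9.37. Icam1, an adhesion ligand, rose by 1.77 ± 0.14, and Icosl, a co-stimulatory ligand, by 1.56 ± 0.14. The checkpoint receptors Vsir and Havcr2 fell by 1.71 ± 0.20 and 1.54 ± 0.29. Of 17 genes of MHC class I antigen processing, 10 rose and 0 fell, but 5 rose without unstimulated array 1 and 6 without unstimulated array 2. Their mean was 9.76, 10.00 and 10.41 on the unstimulated arrays and 10.68, 10.72 and 10.77 after LPS, and 16 of the 17 had a smaller SD after LPS. Tapbpl, Nlrc5 and Tap2 rose by 1.54 ± 0.21, 1.36 ± 0.20 and 1.34 ± 0.19. Nlrc5 is the transactivator of class I genes and Tap2 a subunit of the peptide transporter. Of 15 class II genes, 1 rose (H2-Oa, 1.32 ± 0.33) and 1 fell. With the replicate block 6 rose and 3 fell, and on the 75th percentile scale 10 rose and 0 fell.

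Genes of nitric oxide, arginine, biopterin and prostaglandin synthesis did not move one way, though the inducible enzymes among them rose far. Ptgs2, the inducible prostaglandin synthase, went from 7.26, 6.72 and 6.66 to 12.03, 12.62 and 12.60, a rise of 5.53 ± 0.30 (adjusted p = 4.7e-09). Nos2, the inducible nitric oxide synthase, went from 4.74, 5.18 and 5.27 to 9.61, 10.25 and 10.83, a rise of 5.17 ± 0.26 (adjusted p = 3.2e-09). Hdc, the enzyme that makes histamine, rose by 3.67 ± 0.31 and Ptges, the prostaglandin E synthase, by 2.27 ± 0.15. In the whole list 9 of 23 rose and 5 fell, with a median of 0.07 against 0.03 for all genes, and 3 fell on the 75th percentile scale. Alox5ap, which leukotriene synthesis needs, fell by 0.40 ± 0.07 (adjusted p = 0.19 on the 75th percentile scale). Sepiapterin reductase (Spr) and dihydropteridine reductase (Qdpr), of biopterin synthesis and recycling, fell by 0.70 ± 0.17 and 0.51 ± 0.12. Acod1, the enzyme that makes itaconate, went from 8.95, 10.54 and 11.43 to 12.59, 12.57 and 12.60, a rise of 2.28 ± 0.41. The LPS-treated arrays lay at nearly one value, while unstimulated array 1 lay well below unstimulated array 3.

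Other genes among the 12 largest rises encode surface and signalling proteins. Tnfsf10, the death ligand TRAIL, went from 4.42, 4.87 and 7.39 to 10.38, 10.25 and 10.17, a rise of 4.71 ± 0.65. Clic5, a chloride channel protein, went from 5.35, 5.45 and 7.12 to 10.88, 10.68 and 10.63, a rise of 4.76 ± 0.40. Cd69, a receptor that retains lymphocytes in tissue, rose by 4.55 ± 0.43. In all 3 genes unstimulated array 3 was the highest of its group, and the groups did not overlap.

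Among the largest falls were receptors of the cell surface and their regulators. Cnr2, the cannabinoid receptor of immune cells, went from 8.23, 8.0 and 8.07 to 4.63, 4.14 and 4.72, a fall of 3.60 ± 0.19 on the log2 scale (adjusted p = 3.4e-09). Cd300lb, an activating receptor of myeloid cells, went from 8.58, 8.82 and 9.72 to 5.25, 5.46 and 6.16, a fall of 3.42 ± 0.37. P2ry6, a receptor for UDP, fell by 2.62 ± 0.15 from 9.82, 9.83 and 10.01 to 7.51, 7.01 and 7.30. Arrb1, a beta-arrestin that turns off G protein-coupled receptors, fell by 2.64 ± 0.14 and Kcnn3, a calcium-activated potassium channel, fell by 2.47 ± 0.16. Abcd2, a peroxisomal transporter of fatty acids, fell by 2.57 ± 0.34, and its lowest value, 4.67, was on 6 h array 3. Cdc42ep3, an effector of the small GTPase Cdc42, fell by 2.65 ± 0.30 and Snx24, a sorting nexin, by 2.36 ± 0.12. Tmem273 fell by 2.89 ± 0.25, Gask1b fell by 2.42 ± 0.17 and Eepd1 fell by 2.39 ± 0.16. Of 32 phagocytic, C-type lectin and Fc receptors, 4 rose, a share near the 12% of all genes, and 9 fell. Their median was −0.10 (0.18 with arrays centred on the 75th percentile, 10 rising and 2 falling). Clec4e, a receptor for mycobacterial glycolipid, rose by 2.73 ± 0.19, while Cd300a, an inhibitory receptor, fell by 1.69 ± 0.18 and Scarb1, a receptor for lipoproteins, by 1.00 ± 0.14.

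Genes of mitochondria, and of the TCA cycle and fatty acid oxidation, fell in large numbers on the main scale, by small amounts in the median. Of 75 mitochondrial ribosomal proteins, 35 fell and 1 rose (Mrpl39, 0.60 ± 0.16), with a median of −0.34, and 21 fell without 6 h array 3 and 23 without unstimulated array 2. With arrays centred on the 75th percentile the median was −0.07, and 16 fell and 5 rose. Mrps18b went from 8.53, 8.62 and 8.10 to 7.52, 7.18 and 7.06, a fall of 1.16 ± 0.15 on the log2 scale, and Mrpl12 fell by 0.98 ± 0.10. Of 31 genes of the TCA cycle and fatty acid oxidation, 21 fell and 1 rose, with 11 falling without 6 h array 3, 13 without unstimulated array 2 and 7 with the 75th percentile as the scale. Idh1, the cytosolic isocitrate dehydrogenase, fell by 1.49 ± 0.13 from 10.63, 10.61 and 10.47 to 9.35, 9.14 and 8.74. Echs1 and Acadm, enzymes of fatty acid oxidation, fell by 1.09 ± 0.17 and 0.84 ± 0.14, and Pdha1, of pyruvate dehydrogenase, by 0.63 ± 0.10. Of 72 subunits of oxidative phosphorylation, 30 fell and 0 rose, with a median of −0.24 that turned to 0.04 (1 falling, 2 rising) with the 75th percentile as the scale. The 9540 brighter genes had a median of −0.24 as well. The count of 30 was 17 without unstimulated array 2, 19 without 6 h array 3 and 14 without array 3 of the knockout groups or with only these groups in the fit. Ndufs7, of complex I, had the smallest adjusted p in that list, with 9.76, 9.74 and 9.72 before and 9.18, 9.26 and 9.07 after LPS (−0.57 ± 0.10, adjusted p = 2.3e-04).

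Cytosolic ribosomal proteins moved less, with 6 of 54 lower, 0 higher and a median of −0.10, a share below the 20.2% of all genes. With the 75th percentile as the scale the median was 0.17, with 19 higher and 1 lower, and the count of 6 was 2 without unstimulated array 1 or 6 h array 3 and 3 without unstimulated array 2 or array 3 of the knockout groups. Aminoacyl-tRNA synthetases fell in 13 of 19 cases and rose in 3, with a median of −0.50. Iars, which loads isoleucine, fell by 1.34 ± 0.18 from 8.80, 8.96 and 8.34 to 7.39, 7.55 and 7.15, and Yars, which loads tyrosine, by 1.04 ± 0.12. Wars, which loads tryptophan and is known to be interferon-inducible, rose by 1.51 ± 0.12 from 8.32, 8.58 and 8.87 to 10.05, 10.17 and 10.09. Of 31 constitutive proteasome subunits, 3 were higher and 4 lower, a smaller share in each direction than over all genes, and 10 were higher and 0 lower on the 75th percentile scale, where the median went from −0.08 to 0.19. Leaving out 1 of the 6 arrays gave 1 to 6 higher and 1 to 7 lower. Glycolysis genes were also mixed, with 4 of 22 higher and 9 lower, and a median of −0.21 (0.06, with 8 higher and 3 lower, on the 75th percentile scale). Pfkfb3, which makes the activator of phosphofructokinase, rose by 1.39 ± 0.20 and Hif1a, the oxygen-sensing transcription factor, by 0.70 ± 0.14. The glucose transporter Slc2a1 fell by 0.93 ± 0.12 from 10.33, 10.60 and 10.68 to 9.42, 9.47 and 9.91.

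Sterol and lipid genes fell. Of 20 genes of sterol synthesis and uptake, 11 fell and 0 rose, with a median of −0.62, and 19 fell and 1 rose with the replicate block. The count of 11 was 4 without unstimulated array 1 or 6 h array 3, and 7 without unstimulated array 2 or 6 h array 2. With only these groups in the fit 4 fell and 0 rose, and on the 75th percentile scale 7 fell and 1 rose. Their mean was 8.25, 7.93 and 7.54 on unstimulated arrays 1, 2 and 3 and 7.80, 7.17 and 6.81 after LPS, so each array fell while the groups overlapped. Dhcr7, the last enzyme of cholesterol synthesis, fell by 1.64 ± 0.17 from 8.79, 8.72 and 8.55 to 7.41, 6.86 and 6.87. Lss, which closes the sterol rings, fell by 1.19 ± 0.19 and Mvd, of the mevalonate pathway, by 0.86 ± 0.13. Hmgcs1, at the start of that pathway, was at 8.62, 8.0 and 7.83 before and 8.26, 7.46 and 7.21 after LPS, a difference of −0.51 ± 0.26 (adjusted p = 0.15; 0.0015 with the replicate block). Of 23 LXR and PPARG lipid-handling genes, 2 rose and 9 fell, and with the replicate block 15 fell. With only these groups in the fit 8 of them fell and 0 rose, and on the 75th percentile scale 5 fell and 3 rose. Pparg, the nuclear receptor itself, fell by 2.01 ± 0.21 from 9.40, 9.13 and 8.45 to 7.21, 6.98 and 6.78. Scd2, a fatty acid desaturase, fell by 2.20 ± 0.24, Angptl4, an inhibitor of lipoprotein lipase, by 2.0 ± 0.27 and the cholesterol exporter Abcg1 by 0.84 ± 0.12. Abca1, the exporter of cholesterol to lipid-poor apolipoprotein, rose by 1.23 ± 0.43 (adjusted p = 0.037), with adjusted p = 0.18 without unstimulated array 1, 0.063 without unstimulated array 2, and 0.087 and 0.15 without 6 h arrays 2 and 3. Of 36 lysosomal genes, 10 fell and 1 rose, and with the replicate block 19 fell. Their median of −0.22 was 0.05, with 3 falling and 3 rising, on the 75th percentile scale. Tfeb, the transcription factor of lysosome genes, fell by 1.5 ± 0.08 from 7.27, 7.35 and 7.43 to 5.89, 5.84 and 5.84.

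Cell cycle genes fell from unequal levels. Their mean over 51 genes was 8.02, 7.80 and 6.91 on unstimulated arrays 1, 2 and 3 and 7.24, 6.84 and 6.23 after LPS, with array 3 lowest each time. Of the 51, 23 fell and 1 rose, with a median of −0.86, and with the replicate block 42 fell and 3 rose. With only these groups in the fit 16 fell and 1 rose, and on the 75th percentile scale 15 fell and 2 rose. The count of 23 was 13 without unstimulated array 1, 14 without unstimulated array 2 or 6 h array 3, 38 without unstimulated array 3 and 35 without array 3 of the knockout groups. Cdk2, a kinase of DNA synthesis, fell by 1.25 ± 0.21 from 7.89, 7.81 and 7.47 to 6.80, 6.67 and 5.96. Cdk4 and Ccnd1, a kinase and a cyclin of entry into the cycle, fell by 1.21 ± 0.11 and 1.19 ± 0.19. Mki67, a marker of proliferating cells, was at 8.70, 8.25 and 6.84 before and 8.90, 8.53 and 8.61 after LPS, a difference of 0.75 ± 0.37 (adjusted p = 0.14; 0.016 with the replicate block).

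Genes of cell death and survival changed in both directions. Of 26 genes of death receptors, necroptosis, pyroptosis and caspases, 18 rose and 6 fell, and 3 fell without array 3 of the knockout groups. Nlrp3, the inflammasome sensor, rose by 2.49 ± 0.22 from 7.70, 8.11 and 7.41 to 10.03, 10.32 and 10.35. Cflar and Birc3, inhibitors of death receptor signalling, rose by 1.38 ± 0.12 and 1.23 ± 0.12. Casp6 fell by 1.00 ± 0.17 and Casp9, the caspase of the mitochondrial pathway, by 0.59 ± 0.10. Of 14 BCL2 family genes, 2 rose and 3 fell, shares near the 12% and 20.2% of all genes. Without 6 h array 2, 1 fell. Their median of −0.01 was 0.26, with 6 rising and 1 falling, on the 75th percentile scale. The survival gene Bcl2 fell by 1.57 ± 0.20 from 7.24, 7.31 and 7.29 to 5.66, 5.63 and 5.84, and Bcl2l11, which encodes the death-promoting protein Bim, rose by 0.97 ± 0.18. Of 21 p53 targets and growth arrest genes, 5 rose and 8 fell, and 5 fell without unstimulated array 1. Their median of −0.21 was 0.06, with 8 rising and 5 falling, on the 75th percentile scale. The death receptor Fas rose by 1.85 ± 0.20 and Mdm2, the ubiquitin ligase of p53, by 0.68 ± 0.12, while Sesn1, a stress inhibitor of mTORC1, fell by 1.88 ± 0.19.

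Stress and iron genes were divided. Of 28 genes of the integrated stress and unfolded protein response, 5 rose and 8 fell, with 5 falling without unstimulated array 1 or 2 and 4 without 6 h array 3. Their median of −0.18 was 0.09, with 8 rising and 3 falling, on the 75th percentile scale. Ppp1r15a, which reverses the stress block on translation, rose by 1.29 ± 0.13. Eif2ak3, the stress kinase PERK, fell by 1.78 ± 0.15 from 7.70, 7.57 and 7.32 to 5.95, 5.87 and 5.42. Xbp1, a transcription factor of the unfolded protein response, fell by 0.87 ± 0.12. Of 26 antioxidant and iron genes, 6 rose and 10 fell, with a median of −0.12 (0.15, with 9 rising and 4 falling, on the 75th percentile scale). Lcn2, which binds bacterial iron carriers, rose by 4.13 ± 0.33 from 4.38, 4.57 and 5.2 to 9.02, 8.53 and 9.0. Slc7a11, the cystine importer, rose by 1.94 ± 0.16 and Sod2, the mitochondrial superoxide dismutase, by 1.5 ± 0.13. Slc40a1, the iron exporter ferroportin, fell by 1.72 ± 0.26 from 8.06, 7.51 and 7.41 to 6.07, 5.72 and 6.02, and Gclc, of glutathione synthesis, by 0.89 ± 0.17.

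In the SUMO machinery, 5 of 19 measured genes rose and 5 fell, with a median of −0.13. On the 75th percentile scale 7 rose and 1 fell, with a median of 0.14. The rising count was 3 without unstimulated array 1 or 2 or 6 h array 1, and the falling count 3 without 6 h array 3 or array 3 of the knockout groups. Ranbp2, a SUMO ligase of the nuclear pore, rose by 0.91 ± 0.13 from 8.79, 8.86 and 8.76 to 9.67, 9.84 and 9.65. Rnf4, a ubiquitin ligase that recognises SUMO chains, rose by 0.66 ± 0.11. Sae1, a subunit of the SUMO-activating enzyme, fell by 0.76 ± 0.18 and Sumo3, a SUMO protein, by 0.51 ± 0.11 (not called on the 75th percentile scale, adjusted p = 0.091).

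Markers of the cultured cells and of other cell types gave these values. Of 16 dendritic cell markers 0 were called higher and 1 lower, with array means of 7.42, 7.19 and 7.34 before and 7.70, 7.36 and 7.28 after LPS, and with the replicate block 6 were higher and 3 lower. Of 15 macrophage markers 3 were higher and 2 lower, with array means of 9.51, 9.81 and 10.42 before and 9.85, 9.92 and 10.42 after LPS. Mrc1, the mannose receptor, was among the 2 that fell (−0.50 ± 0.14), without a call on the 75th percentile scale (adjusted p = 0.1), with only these groups in the fit (0.063) or without unstimulated array 1 (0.052), unstimulated array 2 (0.051) or 6 h array 3 (0.069). Array 3 of the knockout cells thus had the highest macrophage markers and the lowest cell cycle genes in both groups. Markers of neutrophils averaged 5.60 to 6.18 over these 6 arrays, of plasmacytoid dendritic cells 6.17 to 6.95, of B cells 3.99 to 4.37, of T and NK cells 4.73 to 4.94, of mast cells and basophils 3.86 to 4.21, of erythroid cells and megakaryocytes 5.03 to 5.74, and of stromal cells 4.86 to 5.21. Against 12% of all genes, 4 of 15 neutrophil, 2 of 7 plasmacytoid, 3 of 13 T and NK, 3 of 8 erythroid and megakaryocyte, 2 of 11 mast cell and basophil, 1 of 9 B cell and 1 of 11 stromal markers were called higher, and 0 of each were lower. Without array 3 of the knockout groups 0 T and NK and 1 erythroid and megakaryocyte markers were higher, and without unstimulated array 1 or 6 h array 3 there were 2 neutrophil markers. T and NK markers called higher numbered 1 without unstimulated array 1 or 2 and 0 without 6 h array 3. Most markers of these 2 lists were dim. Among genes with a mean of 6 or more in any group, 0 of 2 T and NK and 0 of 1 erythroid and megakaryocyte markers were higher. Lcn2, described above, is one of the neutrophil markers. The largest change among the plasmacytoid markers was in Tcf4, a transcription factor, which rose by 2.31 ± 0.17 from 6.51, 6.84 and 7.08 to 8.95, 9.12 and 9.29. The part of the cell mix in the changes above was not tested.

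The 6 h response of knockout cells was then set against that of wild-type cells by the interaction, the knockout change minus the wild-type change. It was called for 2031 genes (10.2%), with 599 (3.0%) higher and 1432 (7.18%) lower in knockout, and for 4347 (21.8%) with the replicate block. On the 75th percentile scale 2830 were higher and 588 lower, and after a further quantile normalization 633 were higher and 909 lower. Without unstimulated knockout array 1 or 2 the interaction was called for 1327 or 1284 genes. In wild-type cells, LPS changed 1614 genes (8.1%), 844 (4.23%) upward and 770 (3.86%) downward. Of the 2398 genes that rose in knockout cells, 538 (22.4%) rose further than in wild-type cells, 8 (0.334%) rose less, and for 1852 (77.2%) the interaction was not called. Of the 4019 that fell, 1264 (31.5%) fell further, 1 (0.0249%) fell less, and 2754 (68.5%) had no called interaction. The interaction contains the same knockout change that selected these genes, so both splits lean by construction towards larger changes in knockout cells. Genes without a called knockout change, such as Ifit3 and Rtp4, are left out of them. Both splits come from the fit without the replicate block, so a missing interaction call does not show an equal change.

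Ifnb1 showed the widest gap of the genes that rose more in knockout cells. The change of Ifnb1, 6.37 in knockout cells, stood against 0.83 in wild-type cells (adjusted p = 0.28), an interaction of 5.54 ± 0.56 (adjusted p = 3.2e-05). Clic5 (4.54 ± 0.56), Nos2 (4.14 ± 0.37), Tnfsf10 (4.12 ± 0.91), Cxcl11 (3.88 ± 0.88) and Dnase1l3, a secreted DNase (3.42 ± 0.31), followed. Of these 5, Nos2 was called in wild-type cells (1.03, adjusted p = 0.02) and the other 4 were not. Il27 had an interaction of 3.31 ± 0.35, Il6 of 3.22 ± 0.71, and Cxcl9 of 3.11 ± 0.84, which lost its call (adjusted p = 0.059 to 0.065) without unstimulated knockout array 1 or 2, 6 h knockout array 2 or unstimulated wild-type array 2, or with only these groups in the fit. Prom1, a membrane glycoprotein, had 3.09 ± 0.52, Hdc 2.85 ± 0.44 and Il15ra, the receptor that presents IL-15, 2.85 ± 0.40. Of the 30 inflammatory cytokines the interaction was called higher for 10 and lower for 0, against 3.0% higher over all genes.

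**Figure D4:**
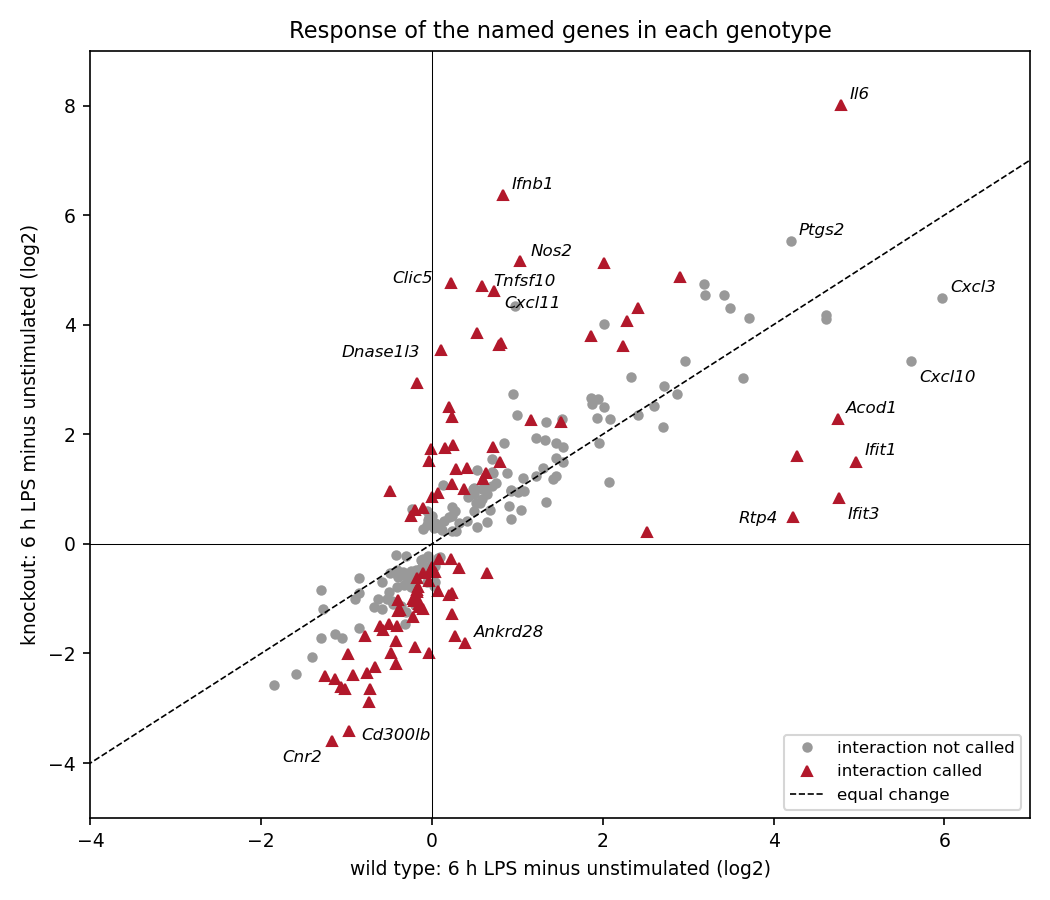
Change after 6 h of LPS in wild-type cells (x axis, log2) against that in knockout cells (y axis, log2) for the 252 named genes, with the dashed line of equal change. Red triangles are the 96 genes with a called interaction and grey circles the 156 without; Ifnb1 lies far above the line (0.83 and 6.37) and Ifit3 and Rtp4 far below it.

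Several genes changed less in knockout than in wild-type cells, among them the interferon-inducible Ifit3, Rtp4, Ifit1 and Ifit2. Ifit3 changed by 4.77 in wild-type and by 0.83 in knockout cells, an interaction of −3.94 ± 0.60 (adjusted p = 8.0e-04). Rtp4 (−3.74 ± 0.47) and Ifit1 (−3.47 ± 0.64) followed, and Ifit2 had −2.67 ± 0.73 (adjusted p = 0.03), with adjusted p = 0.052 to 0.077 without any 1 of 8 arrays, namely unstimulated knockout arrays 2 and 3, 6 h knockout arrays 2 and 3, unstimulated wild-type arrays 1 and 2 and 6 h wild-type arrays 2 and 3. Acod1 had −2.47 ± 0.58. Hp, the haemoglobin-binding protein haptoglobin, rose by 2.52 in wild-type cells and differed by 0.21 ± 0.45 in knockout cells, where the groups overlapped. The interaction of Hp, −2.31 ± 0.63 (adjusted p = 0.029), had an adjusted p of 0.053 to 0.075 without unstimulated knockout arrays 2 or 3, 6 h knockout arrays 1 or 2, unstimulated wild-type array 1 or 6 h wild-type arrays 2 or 3. Among the 46 antiviral genes the interaction was higher for 3 and lower for 4 (8.7%, near the 7.18% over all genes), with a median of −0.06, and 27 rose in wild-type cells, where the median change was 1.26. Pml, one of the 3, did not change in wild-type cells beyond its error (−0.01, adjusted p = 1.0), with an interaction of 1.74 ± 0.39.

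Other genes fell further in knockout cells. Cnr2 fell in wild-type cells too, by 1.17 on the log2 scale, and had an interaction of −2.43 ± 0.26. Cd300lb (−2.45 ± 0.53) and Tmem273 (−2.15 ± 0.36) were not called in wild-type cells (adjusted p = 0.15 and 0.092). Ankrd28 fell by 1.81 in knockout cells, from 7.89, 7.95 and 8.15 to 6.44, 6.35 and 5.77, and was at 0.39 (adjusted p = 0.17) in wild-type cells, an interaction of −2.20 ± 0.22. Kcnj2, an inward rectifier potassium channel, had −1.96 ± 0.35 and Cbr3, a carbonyl reductase, −1.95 ± 0.27. Srxn1, which restores oxidised peroxiredoxins, moved in opposite directions, with a fall of 0.54 ± 0.10 in knockout cells (adjusted p = 7.7e-04, and 0.065 on the 75th percentile scale) and a rise of 0.65 in wild-type cells. Among antioxidant and iron genes 0 of 26 had a higher and 9 a lower interaction, and in wild-type cells 9 rose and 1 fell. Lower interactions were also called for 14 of 75 mitochondrial ribosomal proteins, 8 of 19 aminoacyl-tRNA synthetases and 6 of 31 proteasome subunits, against 7.18% of all genes. Among the 9540 brighter genes, fitted alone, 1884 were lower and 573 higher, with a median interaction of −0.23. On the 75th percentile scale the median interaction of all genes moved from 0.01 to 0.30 and 2.95% were lower. The list counts were then 6, 4 and 1, and the proteasome median turned from −0.28 to 0.01. Of the antioxidant and iron genes 3 were then higher and 6 lower.

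From 1 h to 6 h of LPS in knockout cells, 5848 genes were called (29.3%), 2429 (12.2%) higher and 3419 (17.1%) lower. A fit of only these groups called 3832, and on the 75th percentile scale 8181 were higher and 1937 lower. This comparison and the main one share the 6 h arrays, so their values are given side by side. Nos2 was 5.25 ± 0.26 higher at 6 h than at 1 h and 5.17 higher than without LPS, Clic5 4.85 and 4.76, Cxcl9 4.69 and 5.12, and Cd40 4.49 and 4.87. These genes thus stood at 1 h about where they were without LPS. Il6 was 3.68 ± 0.50 higher at 6 h than at 1 h and 8.01 higher than without LPS, with 7.52, 8.98 and 8.37 on the 1 h arrays. Tnf (0.10), Cxcl2 (0.06), Cxcl1 (0.07) and Tnfaip3 (0.00) were not called between 1 h and 6 h. Iigp1, Apol7c, the glutamate transporter Slc1a2 and the small GTPase Rab38 were among the largest rises in this interval, at 4.35 ± 0.77, 4.23 ± 0.55, 3.95 ± 0.16 and 3.92 ± 0.30. Kcnj2 (−2.93), Cnr2 (−2.73), Scd2 (−2.39) and Otulinl (−2.27) were among the largest falls. Of 46 antiviral genes 33 rose and 0 fell in this interval, and of 24 immediate-early factors 2 rose and 11 fell.

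The letter patterns printed above were counted in all RefSeq promoter windows of 300 bases, from 250 before to 50 after a start, for the 15614 tested genes with an entry. The interferon regulatory factor pattern was in at least 1 window of 3.89% of these genes and the NF-kB pattern in 4.87%. Among the 434 genes called at least 2-fold higher, 56 (12.9%) held the first and 34 (7.83%) the second. Among the 583 called at least 2-fold lower the shares were 2.74% and 6.52%, and among the 10398 genes not called 4.05% and 4.58%. Of genes at least 2-fold higher, 9.5% of the 179 with a higher interaction and 15.1% of the 252 with no called interaction held the first. Genes with several starts have more windows, 1.29 per gene among the risers and 1.2 among genes not called, and the shares were not tested. Neither pattern was found in the windows of Ptgs2, Cxcl9, Il12b, Tnfsf10, Clic5 and Tnf.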

How the data were processed

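RNA of 18 cultures was measured on Affymetrix Mouse Gene 1.0 ST arrays, 3 in each of 6 groups set by the labels. The deposited values are RMA signals, per the submitters' processing notes, and were taken as log2 from their range of 1.5 to 13.7; background correction and summarization are the authors' and were kept. Of 35556 probe sets, 21789 have 1 gene symbol in the platform annotation, 1621 several and 12146 none; the probe set with the highest mean stood for each of 19938 genes. limma 3.58.1 in R 4.3.3 fitted 6 group means to all 18 arrays, with 12 residual degrees of freedom, and p-values were adjusted by Benjamini-Hochberg over all genes, with a call under 0.05. The 43 gene lists (1154 entries, 1054 measured) and the comparisons were chosen with earlier results of these data known. Named genes were the 12 largest called rises and falls of each comparison, without predicted genes, up to 4 called members per list and direction by smallest adjusted p (where none was called, the largest changes), and 24 genes set by name. Deviations of arrays with the same number and genotype correlated by 0.152 to 0.795 over 18 pairs, so the numbers pair the arrays. The main fit leaves this pairing out, and the SE and adjusted p given are those of the unpaired fit unless stated. The replicate block was an alternative (8 residual degrees of freedom). It called 8475 genes in the main comparison and 4347 for the interaction. The fits were also run on simulated data with independent noise and few changed genes. Those data had no paired arrays and no shift of scale, so they do not bear on these 2 limits. The number of arrays limits the precision. Other settings tried were the samples fitted, centring, a further quantile normalization, a filter on dim genes, probe set choice, limma-trend, array weights and leaving out arrays.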

Additional observations from a re-analysis of the deposited data

Results flagged for a closer look

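These results stand out because the change after 6 h of LPS differed between knockout and wild-type cells by the interaction test in limma (adjusted p under 0.05). Values are the knockout change minus the wild-type change in log2 units. Among cytokines, chemokines and their receptors the difference was 5.54 for Ifnb1, 3.88 for Cxcl11, 3.31 for Il27, 3.22 for Il6, 3.11 for Cxcl9 and 2.85 for Il15ra. Among enzymes and surface genes it was 4.54 for Clic5, 4.14 for Nos2, 4.12 for Tnfsf10, 3.42 for Dnase1l3, 3.09 for Prom1 and 2.85 for Hdc. Interferon-inducible genes with the opposite sign were Ifit3 (−3.94), Rtp4 (−3.74), Ifit1 (−3.47) and Ifit2 (−2.67), and with them Acod1 (−2.47) and Hp (−2.31). Genes that fell further in knockout cells were Cd300lb (−2.45), Cnr2 (−2.43), Ankrd28 (−2.20), Tmem273 (−2.15), Kcnj2 (−1.96) and Cbr3 (−1.95). Srxn1 (−1.19) fell in knockout and rose in wild-type cells.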

How the results depend on the processing

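The count of genes called after 6 h of LPS in knockout cells, 6417, was 10984 with arrays centred on the 75th percentile, and 4702 to 6862 when 1 array at a time was left out. The count for the interaction, 2031, was 4347 with the replicate block, 1251 with only the groups compared, 3418 with the 75th percentile, 3268 with array weights, and 1284 to 2476 with 1 array left out. The count from 1 h to 6 h, 5848, was 3832 with only the groups compared, 10118 with the 75th percentile, and 3915 to 6533 with 1 array left out. The other settings kept each count within 1.5 times, and the replicate block gave 8475 genes for the main comparison. Leaving out array 3 of all knockout groups, chosen after seeing the data, gave 5534, 2187 and 4715. Of 4519 combinations of a named gene and a setting, 4218 kept direction and call, 282 lost the call, 14 gained one and 5 reversed. The reversed values, all with the 75th percentile, were Ticam1 0.042, Rplp2 0.044, Psmd13 0.0017, Psmd2 0.029 and Psmb3 0.025. In the main comparison the replicate block changed the call of Il10, Hmgcs1 and Mki67 among the named genes. It also added interaction calls, among them Ptgs2 (adjusted p = 0.02), Il12b (0.006), Cxcl10 (0.017), Ccr7 (0.0035) and Cd14 (0.00059). Small changes depend on the scale of the arrays, and signals near the background gauge have no reliable fold; the cause was not tested.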
